A study of Rattus norvegicus with 6 samples.

Results

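Brush border peptidases and intestinal alkaline phosphatase were followed in the rat jejunum as 7 genes: Anpep, Enpep, Xpnpep2, Mme, Dpp4, Ace and Alpi. A probe was taken for one of them when its RefSeq accession on the array belonged to that gene, whatever its signal, which gave 8 of the 41012 probes of the array and 7 of its 13837 gene symbols. Enpep had 2 probes, called here the dimmer and the brighter, and each of the other genes had 1. The jejunum, the middle stretch of the small intestine, came from male Sprague-Dawley rats of 6 weeks and 200 ± 20 g, all housed at 25°C beforehand. Control rats stayed at 25°C with no shaking, and rats of the 3-day stress group (S3d) spent 2 h a day for 3 days at 35°C on a shaking platform at 0.1 g. Each group had 3 one-colour arrays, each from RNA of 3 rats pooled according to the series' design text, so the errors below measure the spread between pools. The labels give 10 rats per group and the study's methods describe smaller groups, and the rats behind each pool are not named.

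Enterocytes, the absorptive cells that line the villi, carry a dense apical layer of microvilli, the brush border, in whose membrane these enzymes sit with their catalytic domains facing the gut lumen. The peptidases cut the oligopeptides left by pancreatic proteases into amino acids and into di- and tripeptides, which transporters then take up. Alkaline phosphatase removes phosphate groups from lumenal substrates, among them bacterial lipopolysaccharide, and is commonly used as a marker of mature enterocytes. Several of these enzymes also occur outside the epithelium: Ace on endothelium, Dpp4 (CD26) on T lymphocytes, Anpep (CD13) on myeloid cells and Mme (CD10) on stromal and lymphoid cells.

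The files carried a conflict in their labels. Each of the 6 columns of the deposited normalized table tracked a scanner file labelled as the opposite group, at an equal replicate number (Spearman correlation at least 0.9996, against 0.942 to 0.950 with the file of its own label). No array was reassigned. Directions below follow the labels of the scanner files, "S3d minus control", and every one of them turns if the table's labels are the right ones. Each group also lay on a slide of its own, with scans 450 days apart, so group cannot be told apart from slide or scan. Processed signals had their 75th percentile at 415 to 430 on the control arrays and at 1458 to 1558 on the S3d arrays, no spot was saturated, and 74.0% of the 31367 probes tested differed between the groups at an adjusted p under 0.05 (limma). Arrays of a group correlated at 0.984 to 0.995 over the tested probes, and arrays of different groups at 0.925 to 0.939. In whole-tissue RNA, fewer cells of a type and less RNA per cell cannot be told apart.

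Of the 8 probes, 2 were higher on the S3d arrays (Mme and the dimmer Enpep probe), 3 were lower (Dpp4, Ace and Alpi) and 3 passed no test (Anpep, the brighter Enpep probe and Xpnpep2). The 5 called probes stood against 74.0% called among all tested probes, 39.5% higher and 34.5% lower, so the count itself was no larger than that of the array. With a fold of at least 1.5 also required, 4 of the 8 remained, against 52.5% of all tested probes. The groups did not overlap for 6 of the 8, against 78.3% of all tested probes. All 8 were well above background on all 6 arrays, with no saturated spot and no spot marked as an outlier. Values are log2 processed signals from which the array's own 75th percentile was subtracted, and they compare arrays for 1 probe, not probes with each other.

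The aminopeptidases take single residues off the N-terminus of a peptide. Anpep, aminopeptidase N, the most general of them, read 6.38, 6.51 and 6.42 on the control arrays and 6.39, 6.56 and 6.57 on the S3d arrays. The groups overlapped, and the difference of 0.07 ± 0.08 (SE, n = 3 and 3) had a 95% interval from -0.13 to 0.27 (adjusted p = 0.47, limma). Enpep, aminopeptidase A, removes acidic residues and is also known for turning angiotensin II into angiotensin III. Its dimmer probe read -0.12, 0.31 and 0.18 on the control arrays and 1.16, 1.40 and 1.26 on the S3d arrays. All 3 S3d values lay above all control values, by 1.15 ± 0.13 (SE) or 2.22-fold (adjusted p = 0.00039, limma). Its brighter probe read 4.44, 4.85 and 4.72 on the control arrays and 4.86, 4.84 and 4.79 on the S3d arrays. Here the highest control array lay within the S3d values, and the difference was 0.16 ± 0.11 (SE) with a 95% interval from -0.12 to 0.44 (adjusted p = 0.25, limma). The Enpep probes thus gave different calls. Within each array the dimmer probe gained 0.99 on the brighter one between the groups, where their gap varied by 0.01 (SD) over the control arrays and 0.13 over the S3d arrays. The mean of both probes differed by 0.65.

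Xpnpep2, membrane-bound aminopeptidase P, cuts peptides whose second residue is proline. It read 0.75, 0.84 and 0.81 on the control arrays and 0.86, 1.10 and 1.09 on the S3d arrays. The S3d values lay above the control values by a narrow margin, and the difference of 0.21 ± 0.09 (SE) missed the threshold (adjusted p = 0.066, limma) with a 95% interval from -0.00050 to 0.43. Without S3d replicate 1, the lowest of its group, it was 0.29 and passed.

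Mme, neprilysin, a zinc endopeptidase that cuts inside short peptides, was the only gene with 1 probe that was called higher. It read 5.36, 5.59 and 5.47 on the control arrays and 6.28, 6.25 and 5.94 on the S3d arrays. No S3d value fell within the control range, and the difference was 0.68 ± 0.12 (SE), or 1.60-fold (adjusted p = 0.0027, limma).

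Dpp4 and Ace release dipeptides, Dpp4 from the N-terminus behind proline or alanine and Ace, angiotensin-converting enzyme, from the C-terminus. Dpp4 read 4.60, 4.57 and 4.38 on the control arrays and 3.75, 3.70 and 3.58 on the S3d arrays. Every S3d value was below every control value, with a difference of -0.84 ± 0.09 (SE), or 1.80-fold lower (adjusted p = 0.0003, limma). Ace read 4.46, 4.73 and 4.66 on the control arrays and 4.24, 4.26 and 3.97 on the S3d arrays, with no overlap. Its difference was -0.46 ± 0.12 (SE), or 1.37-fold lower (adjusted p = 0.012, limma), which is under the 1.5-fold limit. The Ace probe was printed 10 times on each array, which allows the error of the spots to be set beside that of the pools. The 10 spots of an array varied by 0.04 to 0.06 (SD), while the arrays of a group varied by 0.14 to 0.16. Each of the 10 spot positions gave a lower value on the S3d arrays, by differences between -0.52 and -0.36. The spread between arrays of a group was thus larger than that between spots.

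Alpi, intestinal alkaline phosphatase, read 7.71, 7.81 and 7.92 on the control arrays and 6.88, 6.86 and 6.80 on the S3d arrays. The groups lay far apart for their spread, with a difference of -0.96 ± 0.08 (SE), or 1.95-fold lower (adjusted p = 9e-05, limma). It was the largest fall among the 8 probes under this scaling, but not under quantile normalization, where Dpp4 fell most. Before scaling, its processed signal was higher on the S3d arrays, 171099 to 180612, than on the control arrays, 86631 to 103813, as the S3d arrays were brighter throughout. Rat Alpi has a close relative, Akp3, and the probe sequences are not in the files, so signal shared between them was not examined.

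**Figure D1:**
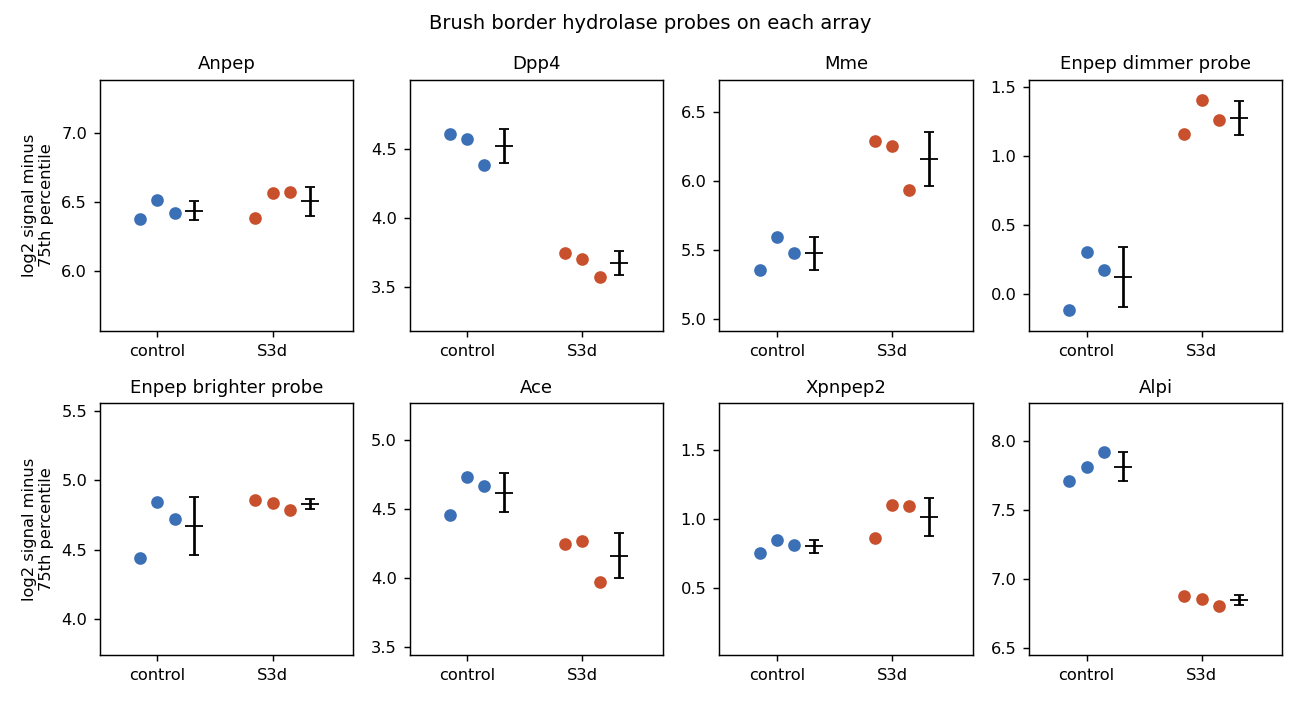
Log2 signal after subtraction of the array's 75th percentile (vertical axis, every panel with the same span) for the 8 probes, with 1 point per array, 3 control (blue) and 3 S3d (red), and the mean ± SD beside each group. The groups stand apart for Dpp4, Mme, the dimmer Enpep probe, Ace and Alpi, lie close together for Xpnpep2, and overlap for Anpep and the brighter Enpep probe.

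Sequence upstream of the start was taken for the 2 genes with a probe called higher, of which Enpep had it on 1 of its 2 probes, and for the 2 with the largest called falls, to show what DNA lies before genes whose probes moved in opposite directions. RefSeq promoter sequences on the GRCr8 assembly held an entry for all 7 genes. The 250 bases before each start were searched on both strands for 4 short motifs. GTTAAT is the letter core of sites for HNF1, a homeodomain factor of enterocytes. TTTAT is the core of sites for CDX factors, which specify the intestine. GGGCGG is the GC box, which Sp1 factors bind. TATAAA is the TATA box, and each match to it also holds TTTAT on the opposite strand. Capitals mark the matches, and the sequences read 5′ to 3′ on the gene's strand: Mme at chr2:149872247-149872496, plus strand. Enpep at chr2:220526219-220526468, minus strand. Dpp4 at chr3:67452423-67452672, minus strand. Alpi at chr9:95224781-95225030, minus strand.
Mme: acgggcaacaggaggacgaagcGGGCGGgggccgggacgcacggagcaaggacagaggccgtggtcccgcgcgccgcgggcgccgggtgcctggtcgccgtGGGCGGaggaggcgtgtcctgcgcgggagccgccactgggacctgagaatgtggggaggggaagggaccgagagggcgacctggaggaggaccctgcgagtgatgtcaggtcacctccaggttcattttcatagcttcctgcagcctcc
Enpep: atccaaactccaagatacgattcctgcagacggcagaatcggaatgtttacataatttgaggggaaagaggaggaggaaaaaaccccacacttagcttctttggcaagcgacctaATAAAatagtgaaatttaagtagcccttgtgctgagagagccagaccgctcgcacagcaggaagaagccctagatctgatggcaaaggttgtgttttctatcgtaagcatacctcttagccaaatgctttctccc
Dpp4: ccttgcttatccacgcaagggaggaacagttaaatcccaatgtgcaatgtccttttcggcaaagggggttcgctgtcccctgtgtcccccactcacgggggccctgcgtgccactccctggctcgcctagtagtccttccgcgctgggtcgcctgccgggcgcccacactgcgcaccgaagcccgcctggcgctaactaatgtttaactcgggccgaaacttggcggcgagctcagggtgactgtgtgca
Alpi: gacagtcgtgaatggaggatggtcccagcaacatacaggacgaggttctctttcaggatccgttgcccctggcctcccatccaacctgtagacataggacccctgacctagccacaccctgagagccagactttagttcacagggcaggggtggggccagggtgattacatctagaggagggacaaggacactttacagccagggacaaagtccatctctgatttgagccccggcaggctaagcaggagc
The Mme window held GGGCGG at 2 places and the Enpep window held TTTAT, on the reverse strand, at 1 place. No match to the 4 motifs was found in the Dpp4 and Alpi windows, which says only that these letters are not in these 250 bases. Among the genes not printed, Anpep held GTTAAT 98 bases before the start and Xpnpep2 held none. Ace held GGGCGG at 4 places and a TATAAA on the reverse strand, overlapping a TTTAT on the gene's strand. Over all 33469 promoters of the same length, GTTAAT was in 6.45%, TTTAT in 39.3%, GGGCGG in 30.5% and TATAAA in 12.9%. The G and C content of the windows was 45.2% for Enpep, 70.4% for Mme, 62.4% for Dpp4 and 56.4% for Alpi.

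The difference between the groups depended on how bright a probe was. Over the tested probes with a mean value under -4 the median difference was 0.72, between 0 and 2 it was -0.06, between 4 and 6 it was -0.50 over 1214 probes, and above 6 it was -0.94 over 508 probes. Against the probes of its own range, Alpi (mean 7.33) lay at -0.02 from the median and Ace (mean 4.39) at 0.04, so the falls of these genes were of the size that bright probes had in general. Dpp4 lay 0.35 below the median of its range. The probes with no call or a rise lay above theirs: Anpep by 1.01, Mme by 1.18, the dimmer Enpep probe by 1.21, the brighter one by 0.66 and Xpnpep2 by 0.27. The part of signal strength in each difference was not tested.

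**Figure D2:**
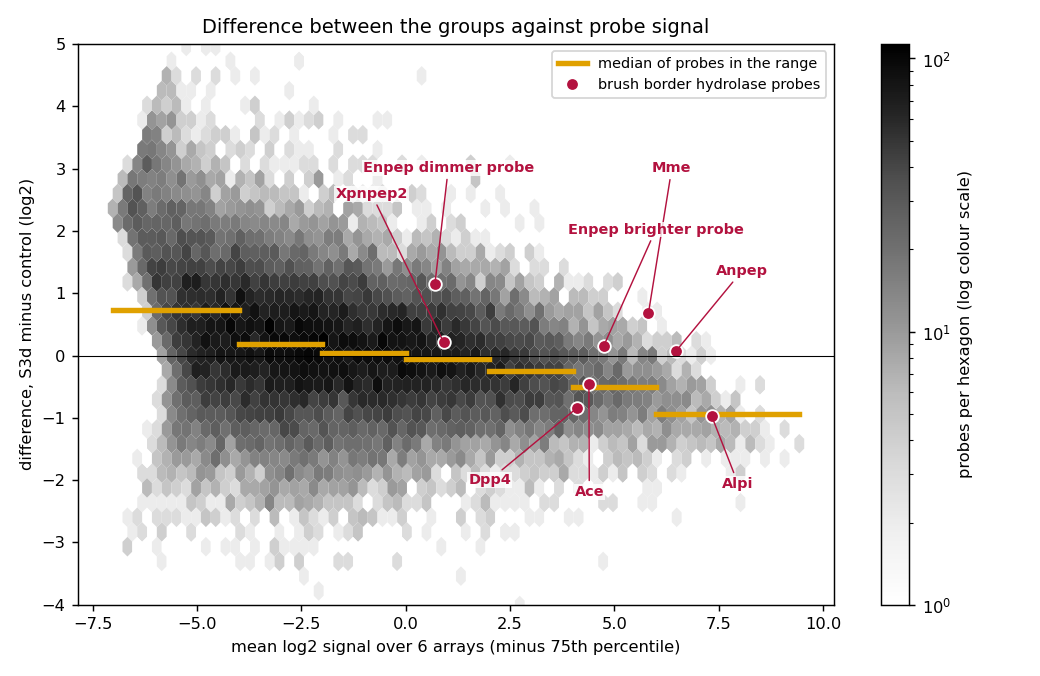
Difference S3d minus control (log2, vertical axis) against the mean log2 signal over the 6 arrays (horizontal axis) for all tested probes, shaded by number, with 62 probes beyond -4 or 5 not drawn. Yellow bars are medians per range of signal, falling from 0.72 among the dimmest to -0.94 among the brightest, and red points are the 8 probes: Alpi and Ace lie on the bars, Dpp4 below, and the other 5 above.

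Methods that align the arrays at every signal level gave a different balance. Under quantile normalization 4 of the 8 probes were called higher and 1 lower, against 35.0% and 35.6% of all tested probes (70.6% in both directions). Under cyclic loess 5 were called higher and 1 lower, against 36.8% and 34.7% (71.5% in both directions). Under quantile normalization the difference of Anpep became 0.82 (adjusted p = 0.00072, limma) and that of the brighter Enpep probe 0.61 (adjusted p = 0.0054, limma). Mme grew to 1.32 and the dimmer Enpep probe stood at 1.18. Dpp4 shrank to -0.47 and stayed called (adjusted p = 0.0029, limma). Ace, at -0.07, and Alpi, at -0.03, lost their calls. Cyclic loess gave 0.76 for Anpep, 0.64 for the brighter Enpep probe, 1.29 for Mme, 1.21 for the dimmer Enpep probe and -0.44 for Dpp4, each called, and -0.16 for Alpi and -0.015 for Ace, without a call. Mme, the dimmer Enpep probe and Dpp4 therefore kept direction and call under the 75th percentile, median centring, quantile normalization and cyclic loess, whereas Anpep, the brighter Enpep probe, Ace, Alpi and Xpnpep2 changed call between them. Xpnpep2 was called under cyclic loess, at 0.29 (adjusted p = 0.027, limma), and not under quantile normalization, at 0.24. With normexp background correction no member passed limma's adjusted test, 2 had an unadjusted p under 0.05, and 5.59% of all tested probes were called. The differences there were 1.32 for Mme, 1.03 for the dimmer Enpep probe, -0.20 for Dpp4 and -0.41 for Alpi. Without any scaling all 8 were called higher and 0 lower (limma), against 94.2% and 1.86% of all tested probes, 96.0% in both directions.

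**Figure D3:**
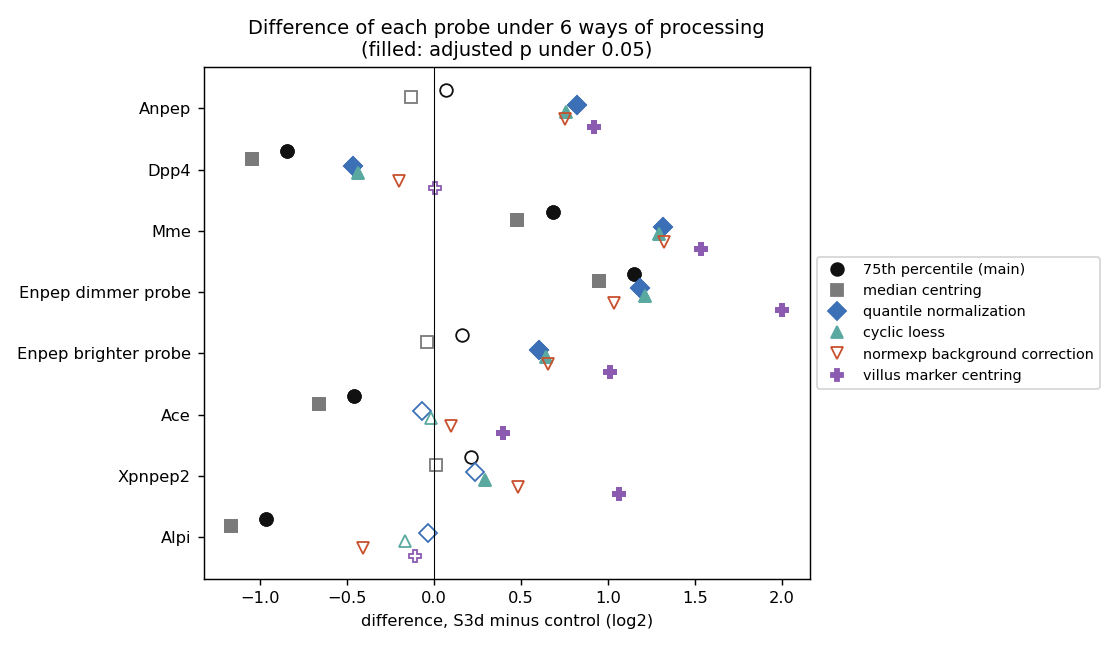
Difference S3d minus control (log2, horizontal axis) of each of the 8 probes under 6 ways of processing, filled where the adjusted p was under 0.05. Mme and the dimmer Enpep probe lie right of 0 throughout, Alpi and Ace move from -0.96 and -0.46 in the main processing to -0.03 and -0.07 under quantile normalization, and Dpp4 is left of 0 except when villus markers are set to no change.

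Changes relative to villin, the actin-bundling protein of microvilli, were read within each array, so that no scaling entered. Vil1 itself differed by -0.29 (adjusted p = 0.012, limma), which adds 0.29 to each gain below. Relative to Vil1, the dimmer Enpep probe gained 1.44, Mme 0.98, Xpnpep2 0.51, the brighter Enpep probe 0.45 and Anpep 0.36 from control to S3d, without overlap of the groups. Dpp4 changed by -0.55 and Alpi by -0.67, again without overlap, while Ace changed by -0.16 with overlap. Relative to Vil1, 77.8% of all other probes with a value on every array did not overlap either. Alpi kept its distance from Vil1 within 0.01 (SD) over the control arrays and 0.06 over the S3d arrays. The probes thus changed unequally on the same arrays. A ratio of this kind still carries the dependence on signal given above.

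In the deposited table of log2 values, whose columns have nearly the same distribution, the signs by its own labels were the opposite ones. Anpep was 16.57 ± 0.18 in the control columns and 15.74 ± 0.07 in the S3d columns (SD, n = 3), a difference of -0.83. Mme differed by -1.33, the dimmer Enpep probe by -1.19, the brighter one by -0.61 and Xpnpep2 by -0.24, all without overlap. Dpp4 was higher in the S3d columns, by 0.46, without overlap. Ace, at 0.07, and Alpi, at 0.02, overlapped. The groups of columns did not overlap for 75.8% of all tested probes. By these labels 5 of the 8 were called lower and 1 higher, against 34.7% and 35.3% of all tested probes (limma), 70.1% in both directions.

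**Figure D4:**
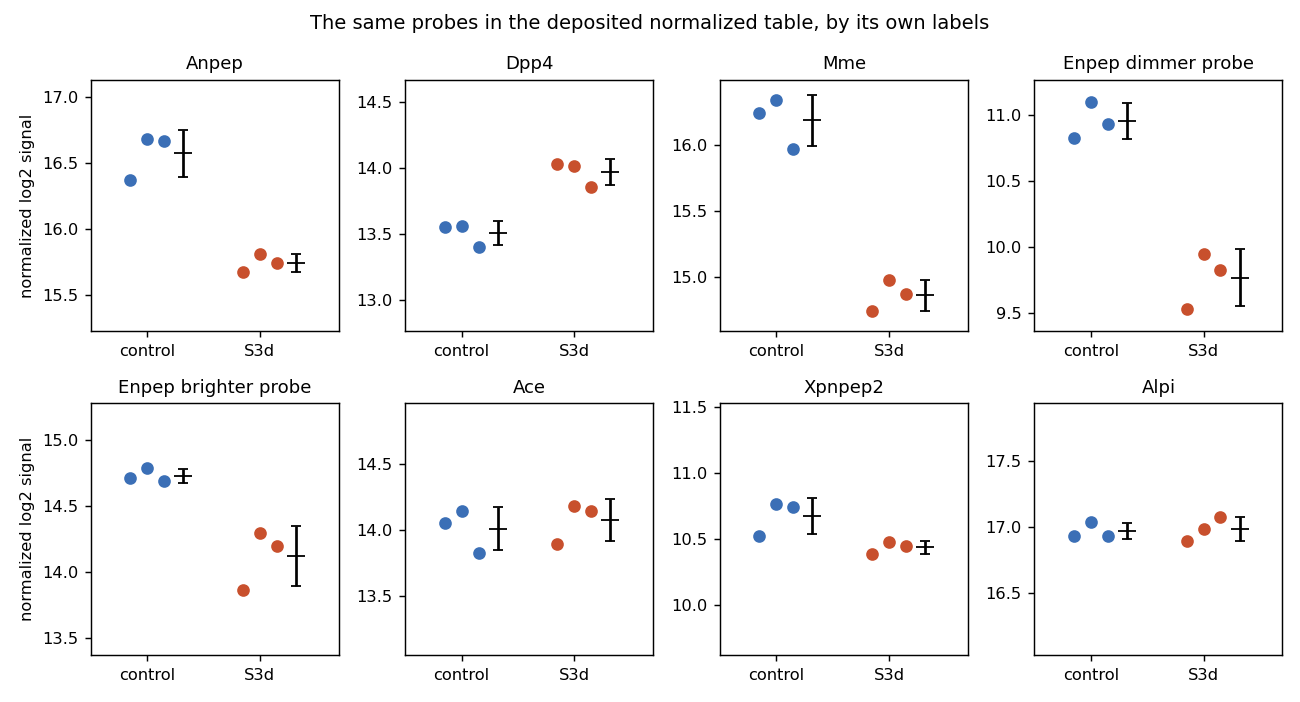
Normalized log2 signal in the deposited table (vertical axis, every panel with the same span), by the table's own labels, 1 point per column, with mean ± SD beside each group. Anpep, Mme, both Enpep probes and Xpnpep2 are lower in the S3d columns, Dpp4 is higher, and Ace and Alpi overlap.

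Other peptidases and phosphatases were read on the brightest probe of each gene, of which 36.1% over all 11479 genes tested were higher and 37.4% lower. Among 13 other cell surface peptidases, 5 were higher, 2 lower and 6 not called, with a median difference of 0.21. Over the 12 of them well above background on all 6 arrays, 4 were higher and 2 lower, with a median of 0.08. Mmel1, a relative of neprilysin, was well above background on the 3 S3d arrays and on none of the control arrays, so it entered the test only through the group where it was brighter. In the main processing it was at least 2.10-fold higher there, a limit that other processing did not keep. The difference was 0.47, without a call, under quantile normalization and -1.65 under normexp. Ggt1, a gamma-glutamyltransferase that breaks down glutathione at the cell surface, changed by -0.83, and Cpm, a membrane carboxypeptidase, by -0.36. Neither meprin subunit was called: Mep1a differed by -0.04 and Mep1b by -0.13. Enteropeptidase, Tmprss15, which activates trypsinogen, differed by -0.07 and was not called either. Under quantile normalization the list had 6 higher and 2 lower, with a median of 0.36, and Mep1b, at 0.40, and Tmprss15, at 0.28, were called.

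Of 14 cytosolic peptidases, which finish the digestion of peptides inside the cell, 10 were lower, 1 was higher and 3 were not called, with a median of -0.44. Npepps, puromycin-sensitive aminopeptidase, changed by -1.23 and Dpp3, dipeptidyl peptidase 3, by -0.86, and Nln, neurolysin, was higher by 0.30. Under quantile normalization the list split into 6 lower and 4 higher, with a median of -0.07, while Npepps, Dpp3 and Nln kept direction and call.

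In the alkaline phosphatase family 2 other genes were tested. Akp3 changed by -0.72 ± 0.18 (SE; adjusted p = 0.011, limma) and by -0.55 under quantile normalization, where it was still called. Alpl, the tissue-nonspecific form, differed by 0.15 and was not called. Among 5 phosphate-handling and ectonucleotidase genes, Slc34a2, a sodium-phosphate cotransporter, was higher by 2.13 and Nt5e, which dephosphorylates AMP, by 0.69. Enpp1 and Enpp3, ectonucleotide pyrophosphatases, changed by -1.47 and -1.41. All 4 kept direction and call under quantile normalization, where Enpp3 shrank to -0.50.

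Genes that sort, anchor or shape the brush border were lower in 6 of 7 cases, with a median of -0.45. Cdhr5, a microvillar protocadherin, changed by -1.15 and Lgals4, a galectin of apical lipid rafts, by -0.77, while Ezr, ezrin, the linker of membrane and actin, was higher by 0.27. Under quantile normalization 3 were called higher and 2 lower: Ezr stood at 1.05, Cdhr5 lost its call at -0.05 and Lgals4 turned to 0.32.

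**Figure D5:**
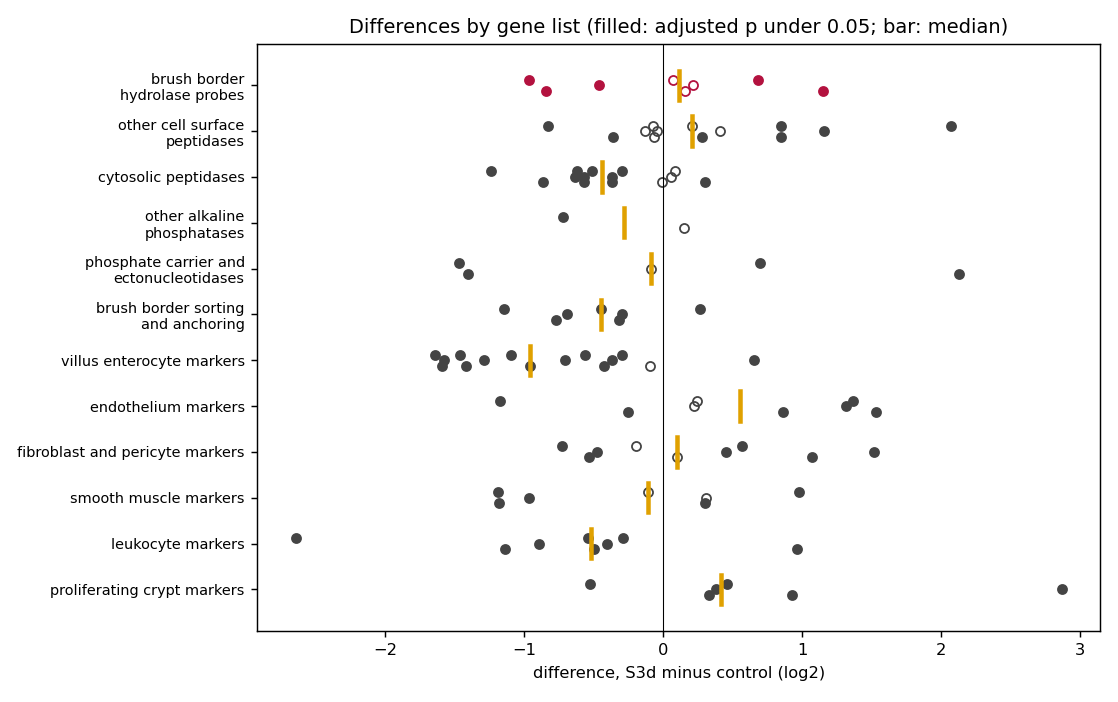
Difference S3d minus control (log2, horizontal axis) by gene list, 1 point per gene (per probe in the top row), filled where the adjusted p was under 0.05, with a bar at the median. The 8 probes spread from -0.96 to 1.15, the cytosolic peptidases and the villus markers lie mostly below 0, and the other cell surface peptidases lie on both sides.

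Markers of the cells in the tissue moved as well, and their part in the members' differences was not tested. Of 15 villus enterocyte markers 13 were lower, 1 was higher and 1 was not called, against 37.4% lower and 36.1% higher over all genes tested. The mean level of the list was 6.57 to 6.70 on the control arrays and 5.74 to 5.84 on the S3d arrays. Its median difference was -0.95, beside -0.94 over all tested probes with a mean value above 6. All 15 were well above background on all arrays. Fabp1, the liver-type fatty acid carrier, changed by -1.64 and Hnf4a, a transcription factor of enterocytes, by -1.59, while Lct, lactase, was higher by 0.66. Quantile normalization left 3 lower and 4 higher, with Fabp1 at -0.33 and Hnf4a at -1.58. With the arrays centred on these markers, 6 of the 8 probes were called higher and 0 lower (limma), against 73.9% and 9.80% of all tested probes, 83.7% in both directions. Dpp4 then lay at 0.0085 and Alpi at -0.11.

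Outside the epithelium, 4 of 8 endothelial markers were higher and 2 lower. One of the 4, Tek, was well above background on 1 control array and 3 S3d arrays, and without it 3 of 7 were higher and 2 lower. Among the other lists, 4 of 9 fibroblast and pericyte markers were higher and 3 lower, and 2 of 7 smooth muscle markers were higher and 3 lower. Over all genes tested, 36.1% were higher and 37.4% lower. Emcn, endomucin of capillary endothelium, was higher by 1.37 while Pecam1, CD31, changed by -1.17. Under quantile normalization 5 of the 8 endothelial markers, Tek included, were higher and 2 lower. Fibroblast and pericyte markers then had 6 higher and 1 lower, and smooth muscle markers 3 and 3. In the main processing the 7 endothelial markers without Tek averaged -1.60 to -1.55 on the control arrays and -1.21 to -1.18 on the S3d arrays. Of 8 leukocyte markers 7 were lower and 1 higher, with Ptprc, CD45, changing by -2.64 and Itgam by 0.97. Under quantile normalization 5 were lower and 1 higher. In the main processing the leukocyte list averaged 0.52 to 0.74 on the control arrays and -0.10 to 0.06 on the S3d arrays. Of 6 markers of proliferating crypt cells 5 were higher and 1 lower. Olfm4, a stem cell marker, was higher by 2.87 and Lgr5 by 0.93, while Cdk1 changed by -0.53. Under quantile normalization 4 were higher and 0 lower, with Lgr5 and Cdk1 not called.

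The named gene whose pattern over the 6 arrays was most like that of each member was found among 10398 genes well above background on all arrays, by Pearson r, as a description over 6 arrays that share the group difference. It was Lratd1 for Alpi (r = 1.00), Hrob for Dpp4 (r = 0.998), Decr1 for Mme (r = 0.999), Gdpd2 for Ace (r = 0.998), Cks2 for Xpnpep2 (r = 0.991), Inpp5b for Anpep (r = 0.995) and Pabpn1 for the brighter Enpep probe (r = 0.982). Over deviations from the group means, where the group difference is taken out, other genes came first for all 7, with r from 0.994 to 1.00. None of these pairs held under both measures.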

How the data were processed

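Jejunal RNA of 3 control and 3 S3d samples was hybridised to one-colour Agilent rat arrays. The authors' scanner files hold processed signal intensity per spot, background-subtracted by Agilent Feature Extraction 10.7 (10.7.3.1 per the file headers) and not scaled between arrays. The deposited value table holds log2 signals, quantile-normalized by the look of their distributions, with the processing not given in the sources used here. Control spots and outlier spots were left out, each array's 75th percentile was subtracted on the log2 scale, and the remaining replicate spots were averaged per probe. The test took the 31367 of 41012 probes whose usable spots were mostly well above background on every array of the control or the S3d group, with limma 3.58.1 in R 4.3.3, and p-values were adjusted by Benjamini-Hochberg over all of them. A probe was called at an adjusted p under 0.05. Precision is limited by there being 3 arrays per group. The files have no mean signal column, so normexp (offset 50) used the median signal and local background. The study's methods name a one-way analysis of variance, run as an alternative beside the other normalizations, centrings, filters and left-out arrays. The member genes and the gene lists were chosen with earlier results of these data known. Named genes were all member probes, the gene most like each member, and genes from the up to 2 called rises and 2 called falls per list. Not every such rise or fall was named. A few further list genes were named after their values were seen. A result that this rule would name is not reported here. The script was tested on simulated data. Replicate numbers did not pair the arrays (correlations of deviations 0.02, 0.02 and -0.05). Samples were grouped by the titles of the scanner files. Promoters are those of RefSeq on GRCr8.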

Additional observations from a re-analysis of the deposited data

How the results depend on the processing

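The main processing called 5 of the 8 probes, 2 higher and 3 lower. Median centring, the percentile over probes above background everywhere, other filters and outlier spots kept gave 5 or 6. So did an intensity trend, array weights and the methods' analysis of variance. Where it was 6, the added call was Xpnpep2. Of all tested probes, 58.8% were called with no filter on dim probes and 69.5% to 76.8% in the others of these settings. No scaling between arrays gave 8 called, 8 higher and 0 lower, with Dpp4 at 1.00, Ace at 1.39 and Alpi at 0.88. Centring on villus markers gave 6 higher and 0 lower, with Dpp4 at 0.0085 and Ace at 0.40. Quantile normalization gave 4 higher and 1 lower, and cyclic loess, chosen after seeing the data, 5 and 1. Normexp with limma gave 0 called, 0 higher and 0 lower, with Ace at 0.10. The deposited table gave 1 higher and 5 lower, with Anpep at -0.83, Dpp4 at 0.46, Mme at -1.33, the dimmer Enpep probe at -1.19, the brighter at -0.61, Ace at 0.065, Xpnpep2 at -0.24 and Alpi at 0.016. Median centring turned Anpep to -0.13 and the brighter Enpep probe to -0.042.

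Of the 34 other peptidase and phosphatase genes, 23 were called, 8 higher and 15 lower. No scaling gave 33 higher and 0 lower and villus centring 25 and 3. Quantile normalization gave 12 higher and 12 lower, and cyclic loess 14 and 12. Normexp left 1 called, 1 higher and 0 lower. Over all 93 list genes, 75 were called, of which 51 kept call and sign under quantile normalization and 4 kept the call with the opposite sign. The cause of these changes was not tested.

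Leaving out 1 array at a time gave 5 to 6 called probes, against 68.4% to 72.7% of all tested probes. The 6th was Xpnpep2 at 0.29 without S3d replicate 1. The brighter Enpep probe, never called, moved between 0.044 without control replicate 1 and 0.25 without control replicate 2. Anpep, never called either, moved between 0.036 without S3d replicate 3 and 0.13 without S3d replicate 1. With the replicate number as a block, 5 probes were called, as without it, against 70.8% of all tested probes. No call of a member changed. No fit with slide as a block was possible, since no slide held both groups.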
